A study of Mus musculus with 16 samples.

Results

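The genes described here are 10 members of the Toll-like receptor system, chosen by gene name: the receptors Tlr1, Tlr2, Tlr3, Tlr4, Tlr6 and Tlr7, the accessory proteins Cd14 and Ly96, the adaptor Myd88 and the inhibitor Irak3. They are 10 of the 49315 genes in the deposited expression table, and all 10 were found there. Expression was measured by bulk RNA sequencing of tail intervertebral discs from 16 mice, with 4 discs of a tail pooled per mouse, so that each library stands for 1 animal. The groups were 3 wild-type mice with intact discs, 4 wild-type mice with injured discs, 4 Adam8EQ mutants with intact discs and 5 Adam8EQ mutants with injured discs. DBA, which is an inbred strain, stands in the title of the series beside the mutants. Adam8 encodes a membrane-anchored metalloprotease, and in the EQ allele, by general knowledge of this allele name, the catalytic glutamate is replaced by glutamine. The labels used here give no age, sex, kind of injury or time after injury.

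Toll-like receptors recognise microbial products and molecules released from damaged tissue or matrix. TLR2 pairs with TLR1 or TLR6 at the cell surface, TLR4 works there with the secreted protein MD-2 (the product of Ly96) and receives its ligand from CD14, and TLR3 and TLR7 bind RNA inside endosomes. All of these receptors except TLR3 signal through MyD88 to NF-kappaB, IRAK-M (the product of Irak3) restrains that signal, and disc cells as well as white blood cells are known to carry TLR2 and TLR4.

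Levels are TPM values, in which reads are divided by transcript length and each library is brought to the same total. Changes are differences of mean log2(TPM + 1), which understate the change of low genes. Tests are limma's, over the 24188 genes that reached 1 TPM in 3 or more libraries, with Benjamini-Hochberg adjusted p-values and a threshold of 0.05. Each limma p-value sets a difference of group means against the spread between mice, estimated over all groups in 1 fit and moderated across genes. In bulk tissue, fewer cells of a type and less RNA per cell cannot be told apart. The reads implied by the TPM values came to between 10218206 and 24876008 per library. The disc markers Acan and Col2a1 stood at 2426 to 7024 TPM and 657.8 to 9312 TPM over all libraries, and the 6 notochordal markers summed to 3314 to 6390 TPM in intact discs, with T (brachyury) at 1789 to 3370 TPM and Shh and Noto below 1 TPM. Adam8 itself stood at 1.24 to 1.69 TPM in intact wild-type discs and 0.956 to 2.97 TPM in intact mutant discs, and reached 3.52 to 66.3 TPM and 16.2 to 264.1 TPM after injury. These levels do not show which allele a mouse carried. Library names begin with D for all wild-type mice, so that naming and genotype cannot be told apart. Among the mutants they begin with A8 (injured mice 1 and 2, intact mice 1 and 2) or M (injured mice 3, 4 and 5, intact mice 3 and 4).

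In mutants, 8 of the 10 genes were higher in injured than in intact discs: Tlr1, Tlr2, Tlr6, Tlr7, Cd14, Ly96, Myd88 and Irak3. Tlr3 and Tlr4 did not pass the test, and no member was lower. No intact library reached 1 TPM of Tlr1, so it met the filter only through injured libraries. Its call is therefore not independent of the filter. Over all genes, 30.8% passed in this comparison, 13.1% higher and 17.7% lower. The members were chosen with earlier results of these data known, so their count beside this share is a description, not an independent test. The members' median log2 change was 1.59, against -0.077 over all genes tested. In the wild type 0 of 10 passed, where 0.116% of all genes did and 0.107% were higher. The wild-type changes were all above 0, with a median of 0.91 against 0.0090 over all genes, and 6 members had an unadjusted limma p under 0.05, as did 4155 of all 24188 genes. Limma's voom on the implied reads also called 0 members in the wild type, against 0.0166% of all genes.

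**Figure D1:**
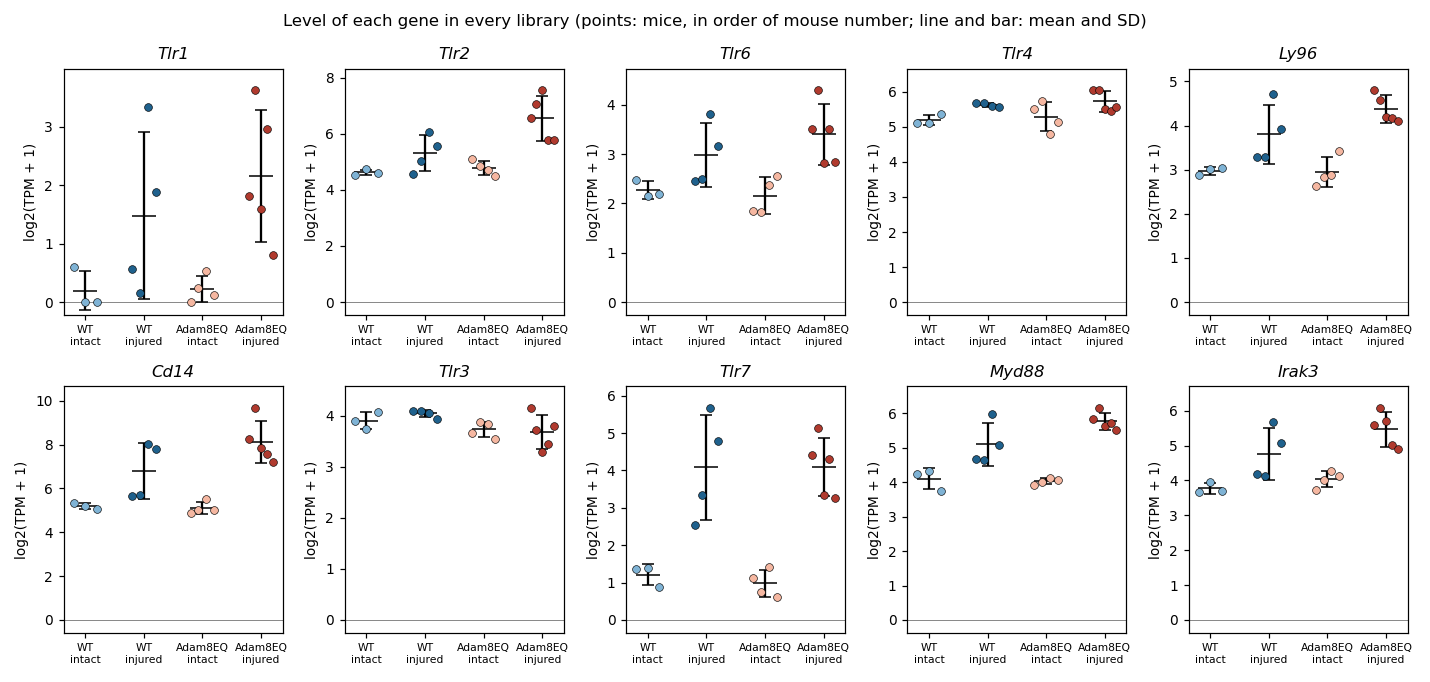
Level of the 10 genes as log2(TPM + 1) in each mouse, by group (WT is wild type), with the mean and SD of each group. The 5 injured mutants lie above all 4 intact mutants for every gene but Tlr3 and Tlr4, and injured wild-type mice 1 and 2 lie below mice 3 and 4 for 8 of the 10 genes.

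TLR2 is the surface receptor for lipoproteins and for several matrix fragments. Tlr2 (ENSMUSG00000027995, chr3:83836272-83841767, minus strand, GRCm38) stood at 33.2, 28.2, 24.9 and 21.4 TPM in the 4 intact mutants and at 92.6, 133.8, 188.3, 53.4 and 54.2 TPM in the 5 injured mutants. Wild-type discs had 22.2, 25.4 and 23.2 TPM when intact and 22.8, 31.9, 65.6 and 46.0 TPM when injured. The mutant groups did not overlap, and injured mouse 3 was highest, whereas injured wild-type mouse 1 lay among the intact wild-type mice. Injury changed Tlr2 by 1.76 ± 0.35 (SE) on the log2 scale in mutants (limma adjusted p = 0.0027). The wild-type difference was 0.69 ± 0.40 (limma adjusted p = 0.38). Mean TPM was 3.88 times as high in injured as in intact mutants.

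TLR1 and TLR6 are the partners that decide which lipoproteins TLR2 binds. Tlr6 (chr5:64952031-64960097, minus strand) stood at 2.605, 2.53, 4.20 and 4.905 TPM in intact mutants and at 10.5, 18.8, 6.08, 10.5 and 6.14 TPM in injured mutants. It stood at 4.55, 3.46 and 3.54 TPM in intact wild-type discs and at 4.47, 4.67, 13.2 and 8.02 TPM in injured ones. The mutant groups did not overlap. The wild-type groups did, since injured mouse 1 lay below the highest intact mouse. For Tlr6 the log2 change was 1.25 ± 0.33 in mutants (limma adjusted p = 0.012), against 0.72 ± 0.38 in the wild type (limma adjusted p = 0.34).

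Tlr1 (chr5:64924679-64933563, minus strand) was the scarcest of the 10 genes. It was listed at 0, 0.188, 0.442 and 0.0926 TPM in intact mutants, which stood for 0 to 5 implied reads, and at 2.53, 11.4, 2.01, 6.85 and 0.749 TPM in injured mutants. Wild-type values were 0.507, 0 and 0 TPM in intact and 0.478, 0.111, 9.09 and 2.67 TPM in injured discs. All 5 injured mutants lay above the intact ones, and injured wild-type mice 1 and 2 lay within the intact range. Its log2 change was 1.94 ± 0.61 in mutants (limma adjusted p = 0.027; 3.81 and 0.015 with a pseudocount of 0.1) and, in the wild type, 1.28 ± 0.70 (limma adjusted p = 0.35). The call in mutants was lost when any of 5 mice was left out (intact mutants 1, 2 and 4, injured mutants 2 and 4), with limma adjusted p-values up to 0.064.

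Reads of Tlr1 and Tlr6 may have been exchanged, because the coding sequences share an identical run of 229 bases (bases 1468 to 1696 of Tlr1 and 1507 to 1735 of Tlr6, counted from the start codon). Of all 50-base windows, 19.4% of those of Tlr1 also occur in Tlr6 and 19.2% of those of Tlr6 in Tlr1. No other pair among the 6 receptors shared a run over 16 bases. The values of both genes are therefore uncertain to that extent, and how the authors placed such reads is not given in the sources used here. The end of the shared run is shown from the GRCm38 transcripts (GENCODE release M21), 120 bases each, with the bases that differ between the genes in capitals.
Tlr1: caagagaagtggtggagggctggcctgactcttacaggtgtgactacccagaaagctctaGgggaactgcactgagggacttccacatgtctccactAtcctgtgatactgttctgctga
Tlr6: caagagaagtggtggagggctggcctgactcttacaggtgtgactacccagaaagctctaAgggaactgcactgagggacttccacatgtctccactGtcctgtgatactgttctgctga
These stretches run from coding base 1637 to 1756 in Tlr1 and from 1676 to 1795 in Tlr6, and they differ at 2 bases.

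TLR4 is the receptor for lipopolysaccharide and for several damage-released molecules. Tlr4 (chr4:66827584-66930284, plus strand) stood at 44.2, 52.5, 26.75 and 34.35 TPM in intact mutants and at 65.7, 65.7, 44.6, 42.6 and 46.4 TPM in injured mutants. Among wild-type mice it stood at 33.5, 33.6 and 40.1 TPM in intact and at 50.1, 50.4, 47.4 and 46.7 TPM in injured discs. The wild-type groups did not overlap and were narrow, whereas the mutant groups overlapped. The log2 difference was 0.43 ± 0.18 in mutants (limma adjusted p = 0.076) and 0.44 ± 0.20 in wild-type mice (limma adjusted p = 0.28). In mutants it passed under 4 alternatives, among them the name prefix as a covariate (0.49, limma adjusted p = 0.0019) and the omission of intact mutant 2 (0.58, limma adjusted p = 0.030).

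Both partners of TLR4 passed the test in mutants. Cd14, which hands lipopolysaccharide to the receptor complex and is a marker of monocytes, stood at 28.8, 31.8, 44.9 and 31.1 TPM in intact mutants and at 300.1, 819.2, 227.2, 190.4 and 145.8 TPM in injured mutants. It stood at 38.9, 35.4 and 32.8 TPM in intact wild-type discs and at 49.1, 50.9, 257.0 and 221.1 TPM in injured ones. Neither pair of groups overlapped, and injured mutant 2 stood far above the rest. With injury Cd14 rose by 2.99 ± 0.52 in mutants (limma adjusted p = 0.0014), and the wild-type difference was 1.59 ± 0.60 (limma adjusted p = 0.22).

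Ly96 (chr1:16688051-16709611, plus strand), which encodes the part of the complex that binds lipid A, stood at 5.15, 6.16, 6.37 and 9.71 TPM in intact mutants and at 27.0, 23.1, 17.4, 16.9 and 16.3 TPM in injured mutants. Wild-type libraries held 6.32, 7.08 and 7.22 TPM in intact and 8.78, 8.70, 25.1 and 14.2 TPM in injured discs. Here too no groups overlapped between injured and intact mice of a genotype. With injury Ly96 rose by 1.43 ± 0.27 in mutants (limma adjusted p = 0.0019), and the wild-type difference was 0.83 ± 0.30 (limma adjusted p = 0.21).

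Of the endosomal receptors, Tlr7 passed the test in mutants and Tlr3 did not. Tlr7 (chrX:167304929-167330558, minus strand), the receptor for single-stranded RNA, stood at 1.19, 0.693, 1.665 and 0.531 TPM in intact mutants and at 20.4, 34.0, 9.22, 18.95 and 8.68 TPM in injured mutants. Wild-type mice showed 1.58, 1.62 and 0.855 TPM in intact and 4.86, 9.16, 50.25 and 26.6 TPM in injured discs. No groups overlapped between injured and intact mice. With injury Tlr7 rose by 3.12 ± 0.53 in mutants (limma adjusted p = 0.0012), and the wild-type difference was 2.87 ± 0.61 (limma adjusted p = 0.093). The latter passed without injured mouse 1 (3.39, limma adjusted p = 0.016) and with array weights (2.58, limma adjusted p = 0.046).

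Tlr3 (chr8:45395665-45411080, minus strand), the receptor for double-stranded RNA which signals through TRIF and not MyD88, stood at 11.7, 13.65, 13.3 and 10.7 TPM in intact mutants and at 16.9, 12.2, 8.76, 9.94 and 12.9 TPM in injured mutants. It stood at 13.95, 12.4 and 15.8 TPM in intact wild-type discs and at 16.2, 16.1, 15.7 and 14.4 TPM in injured ones. The groups overlapped in both genotypes. Its log2 difference was -0.050 ± 0.16 in mutants (limma adjusted p = 0.83), turning to 0.033 under median-of-ratios scaling and 0.053 under quantile normalization. The wild-type difference was 0.14 ± 0.18 (limma adjusted p = 0.70).

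MyD88 is the adaptor that most of these receptors share with the interleukin-1 receptor. Myd88 (chr9:119335934-119341411, minus strand) stood at 14.0, 15.1, 16.3 and 15.9 TPM in intact mutants and at 55.5, 70.7, 49.1, 51.5 and 44.8 TPM in injured mutants. Wild-type levels were 17.8, 19.0 and 12.5 TPM in intact and 24.7, 24.0, 62.2 and 33.0 TPM in injured discs. No groups overlapped between injured and intact mice, and both mutant groups were narrow. With injury Myd88 rose by 1.75 ± 0.23 in mutants (limma adjusted p = 0.00041), the lowest adjusted p of the 10 genes. The wild-type difference was 0.996 ± 0.26 (limma adjusted p = 0.13) and passed without injured mouse 1 (1.13, limma adjusted p = 0.049).

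Irak3 (chr10:120141648-120202130, minus strand), the kinase-like protein that restrains signalling downstream of MyD88, stood at 12.2, 15.1, 18.3 and 16.4 TPM in intact mutants and at 47.4, 66.9, 51.5, 31.3 and 28.9 TPM in injured mutants. It stood at 11.7, 14.45 and 12.03 TPM in intact wild-type discs and at 17.15, 16.6, 50.5 and 32.6 TPM in injured ones. No groups overlapped between injured and intact mice. Injured mutants were higher by 1.43 ± 0.30 on the log2 scale (limma adjusted p = 0.0037), and injured wild-type mice by 0.995 ± 0.34, which did not pass (limma adjusted p = 0.19).

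Across the 10 genes, the injured and intact groups did not overlap for 8 in the mutants and for 6 in the wild type (Tlr4, Tlr7, Cd14, Ly96, Myd88 and Irak3), in each case with injured discs higher. Over all genes tested, 27.2% in mutants and 15.6% in the wild type did not overlap, and 12% and 9.22% were higher with no overlap. Some members overlap other genes on the opposite strand, and use of strand in counting is not given in the sources used here. Acaa1a covers 11.3% of the exon bases of Myd88 and had a log2 change of -0.12 in mutants (limma adjusted p = 0.54). Tmbim4 covers 5.22% of those of Irak3, with 0.19 (limma adjusted p = 0.21). Gm45542 covers 7.32% of those of Tlr3 and was at 0 TPM on average in 3 of the 4 groups.

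**Figure D2:**
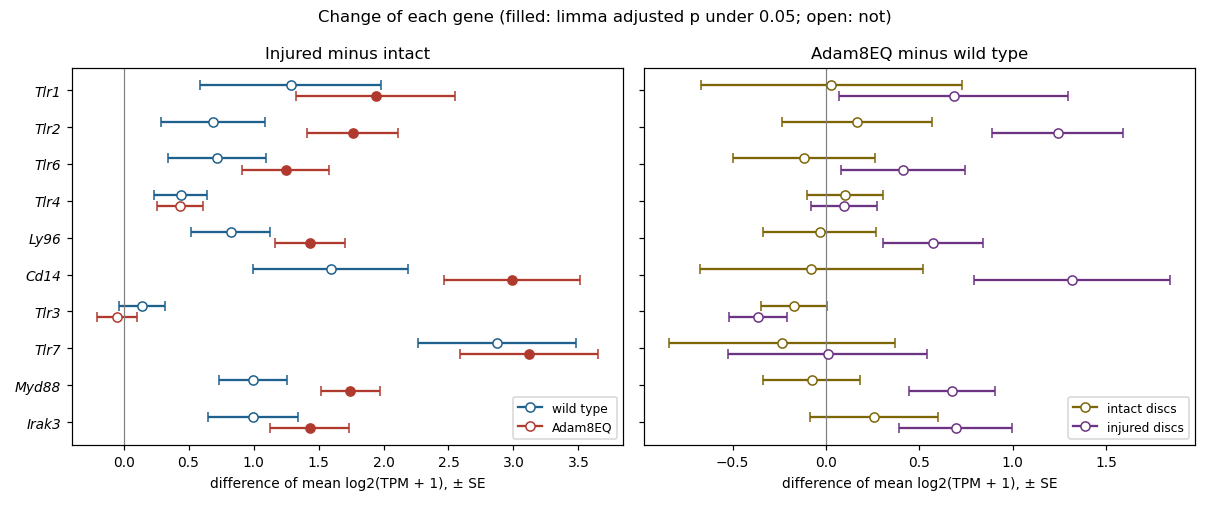
Difference of mean log2(TPM + 1) with its SE for the 10 genes, injured minus intact at left and Adam8EQ minus wild type at right; filled points passed limma's test. The filled points are the 8 genes called for injury in mutants, and no genotype difference passed.

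Between genotypes, 0 of 10 members passed in intact discs, where 0.0165% of all genes did, and the members' log2 differences ran from -0.24 to 0.26 (0 members with an unadjusted limma p under 0.05). No member's groups stood apart there, against 6.18% of all genes. In injured discs 0 of 10 passed as well, against 0.918% of all genes. Voom also called 0 members there, against 2.31% of all genes. The mutant mean of log2(TPM + 1) was higher for 9 members there, and the median difference was 0.62 against -0.094 over all genes. Mean TPM was lower in mutants for Tlr3 and Tlr7. An unadjusted limma p under 0.05 was found for 6 members and for 4912 of all 24188 genes. Tlr2 was closest to the threshold, with 1.24 ± 0.35 (limma adjusted p = 0.085), then Myd88 with 0.67 ± 0.23 (limma adjusted p = 0.13) and Cd14 with 1.32 ± 0.52 (limma adjusted p = 0.18). Tlr3 pointed the other way with -0.37 ± 0.16 (limma adjusted p = 0.20), and Tlr7 stood at 0.0094 ± 0.53 (limma adjusted p = 0.996), with a sign that turned under several alternatives. The groups overlapped for all 10 genes, where 4.77% of all genes did not.

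Injured wild-type mouse 3 bears on this comparison. Without it, 4 members passed: Tlr2 (1.49, limma adjusted p = 0.024), Myd88 (0.97, limma adjusted p = 0.0070), Ly96 (0.88, limma adjusted p = 0.029) and Irak3 (0.999, limma adjusted p = 0.036). Over all genes the share passing was then 9.31%. Without injured mutant mouse 4, Tlr2 passed (1.44, limma adjusted p = 0.047), where 2.47% of all genes did. The injury changes of the genotypes were also compared directly, as an interaction. Limma called 0 of 10 members and 0% of all genes there, and voom called 0 members and 0% of all genes. With limma, 1 member and 1979 of all genes had an unadjusted p under 0.05. That member was Myd88, with 0.75 ± 0.35 (limma adjusted p = 0.61). Cd14 had the largest difference, 1.40 ± 0.79 (limma adjusted p = 0.67). None of the 10 genes thus passed for a difference in injury response between the genotypes.

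Within the mutants the naming of the libraries can be separated from injury. In the fits below that kept mutants of 1 prefix, all wild-type mice stayed in and entered the estimate of the spread. With only the A8 mice, 2 injured and 2 intact, 7 of 10 members passed where 14.8% of all genes did, and Tlr1 was lost (2.60, limma adjusted p = 0.089). With only the M mice, 3 injured and 2 intact, 2 of 10 passed (Myd88 at 1.53 and Tlr4 at 0.54) where 3% of all genes did. For Tlr2 the difference was 1.83 in A8 mice (limma adjusted p = 0.023) and 1.78 in M mice (limma adjusted p = 0.085). Tlr6 (2.08 and 0.59) and Cd14 (3.99 and 2.27) had larger values in the A8 mice, and Tlr7 stood at 3.83 and 2.63. The difference between the sets was not tested. With the name prefix as a covariate, 9 of 10 members passed, and 32.5% of all genes did.

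In intact discs Tlr4 held the largest share of the receptor transcripts in every library. The TPM values of all 12 mouse Toll-like receptor genes summed to 107 ± 4.3 (SD, n = 3) in wild-type and 107 ± 16.8 (n = 4) in mutant intact discs. Tlr4 made up 33.4% ± 2.69 and 36.4% ± 5.49 of that sum, Tlr2 22.1% ± 2.41 and 25.2% ± 2.95, Tlr5 23.9% ± 2.21 and 19.9% ± 3.88, and Tlr3 13.1% ± 1.07 and 11.8% ± 2.35. In intact wild-type discs the mean shares of Tlr2 and Tlr5 lay within each other's SD. In intact mutants Tlr2 was above Tlr5 in mice 1, 2 and 3 and below it in mouse 4 (22% against 24.7%). Tlr6, Tlr7 and Tlr1 each held at most 5.04% in intact discs. After injury the sum was 131.9 to 308.4 TPM in the wild type and 147.9 to 437.0 TPM in mutants, above the intact libraries of the same genotype in every injured mouse. In injured mutants Tlr2 held 38.6% ± 15.9 (n = 5), from 24.4% in mouse 4 to 65.8% in mouse 3, and Tlr4 held 21.3% ± 6.94. In injured wild-type mice Tlr2 held 20.5% ± 2.14 (n = 4), close to its intact share.

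**Figure D3:**
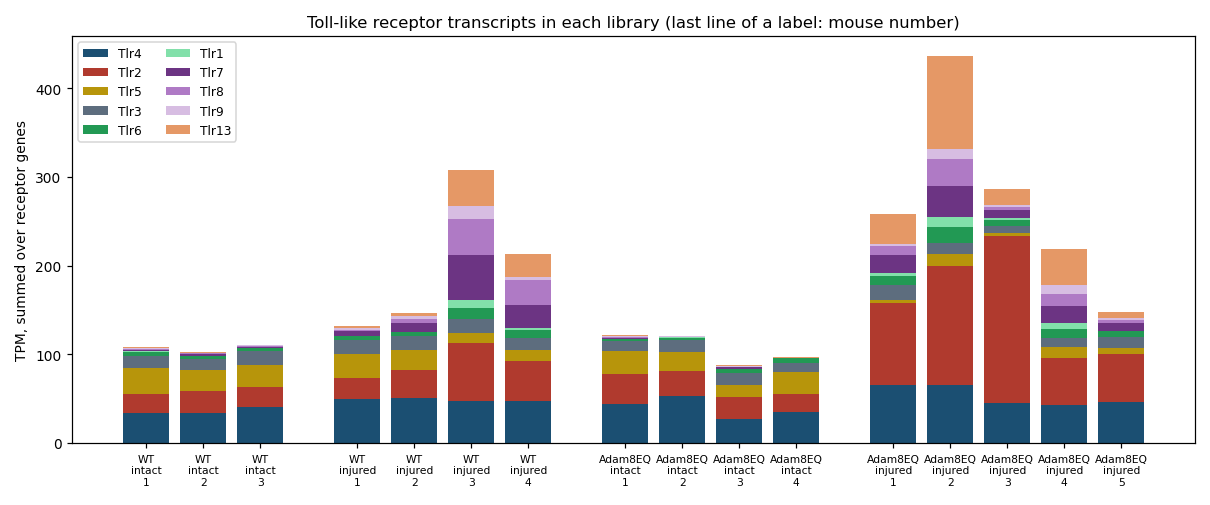
TPM of the Toll-like receptor genes, stacked in each library; Tlr11 and Tlr12, below 1 TPM everywhere, are not drawn. The intact libraries sum to between 88.3 and 122.2 TPM, and Tlr2 is the tallest segment in all 5 injured mutants.

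Ratios within a library were examined after the values were known. That of Tlr2 to Tlr4 was 0.536 to 0.931 in intact mutants and 1.17 to 4.22 in injured mutants. It was 0.578 to 0.757 in intact and 0.456 to 1.38 in injured wild-type discs. Tlr2 thus exceeded Tlr4 in all 5 injured mutants, in none of the 7 intact mice and in 1 of the 4 injured wild-type mice. Cd14 to Ly96 ran from 3.21 to 7.06 in intact and from 8.96 to 35.5 in injured mutants, and from 4.55 to 6.15 and 5.59 to 15.5 in the wild type. The ratio of the inhibitor to the adaptor, Irak3 to Myd88, was 0.874 to 1.13 in intact and 0.608 to 1.05 in injured mutants, and 0.659 to 0.962 and 0.692 to 0.989 in the wild type. Of 12 exact permutation tests on these ratios, none passed after Benjamini-Hochberg adjustment. The smallest p such a test can give is 0.057 for 3 against 4 mice and 0.016 for 4 against 5. The tests of injury in the wild type and of genotype in intact discs could therefore not pass. The lowest permutation adjusted p was 0.095, for Tlr2 to Tlr4 and for Cd14 to Ly96 with injury in mutants. Before adjustment both were at the smallest possible permutation p, 0.016.

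**Figure D4:**
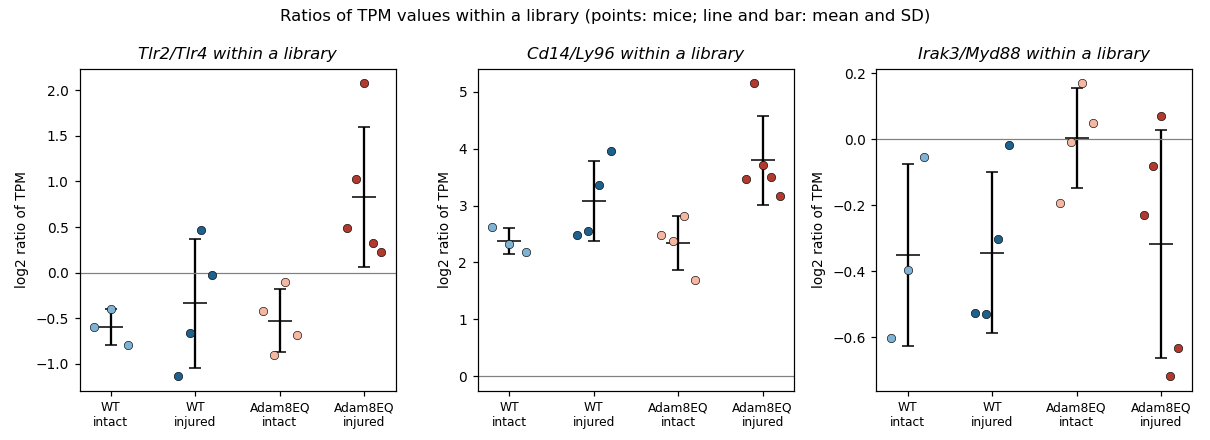
Log2 of the ratio of 2 TPM values within each library, by group, with mean and SD. Tlr2/Tlr4 lies above 0 in all 5 injured mutants and below 0 in all 7 intact mice, and Cd14/Ly96 does not overlap between injured and intact mutants. No ratio passed an exact permutation test after adjustment. The tests of injury in the wild type and of genotype in intact discs could not pass with so few mice.

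The other Toll-like receptors split as well. Of 6, 4 were tested, and in mutants 3 rose with injury: Tlr13, a receptor for bacterial ribosomal RNA (3.93 ± 0.75, limma adjusted p = 0.0021), Tlr8 (2.75 ± 0.75, limma adjusted p = 0.013) and Tlr9, the receptor for unmethylated DNA (1.83 ± 0.53, limma adjusted p = 0.018). Tlr5, the flagellin receptor, fell by 1.54 ± 0.39 (limma adjusted p = 0.0087), from 21.5 ± 5.30 TPM to 7.63 ± 4.88 TPM. Over all genes, 13.1% rose and 17.7% fell in injured mutants. Tlr8 and Tlr9 met the filter of 1 TPM in 3 libraries only with injured libraries counted. Wild-type mice had 0 of 4 called by limma, where 0.116% of all genes were. Of the 4, 3 had an unadjusted limma p under 0.05, as did 4155 of all 24188 genes.

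Promoters of 6 members (Tlr1, Tlr2, Tlr3, Tlr6, Myd88 and Irak3) were found in the RefSeq table, GRCm38.p6, with 9 windows of 250 bases before to 50 after a start site. They were searched on both strands for the NF-kappaB consensus, for the interferon response element (TTTC followed by any 2 bases and TTTC) and for the PU.1 core GAGGAAG, which occur in 8.46%, 3.44% and 13.6% of all 32851 promoters of the same length. Shown are the stretches that hold the first 2 motifs, in gene direction, with the motif in capitals.
Tlr2, chr3:83841762-83841790: aggacacctGGGGAATTCCCacacggagc
Tlr2, chr3:83841597-83841626: ccctgacctgGGGACATCCCcttccctcac
Tlr3, chr8:45410572-45410601: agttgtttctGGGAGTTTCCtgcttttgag
Tlr6, chr5:64959260-64959289: ctattctTTTCTCTTTCACTTTCtgtttga
Myd88, chr9:119340039-119340068: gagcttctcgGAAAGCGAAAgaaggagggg
All 5 are read along genes on the minus strand. NF-kappaB matches overlapped in the first Tlr2 stretch and interferon response matches in Tlr6, and the Myd88 match reads on the opposite strand. Tlr2, which rose with injury in mutants, and Tlr3, which did not pass the test, both hold NF-kappaB matches. A core for PU.1, a myeloid transcription factor, was found in Tlr1 alone among the 6, and no match of the 3 motifs was found in Irak3. A match is a description of letters, not a site.

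Genes that deliver ligands or fold and route the receptors moved with them in part. Of 9, 5 rose in injured mutants, 0 fell and 4 did not pass, where 13.1% of all genes rose and 17.7% fell. Lbp, which carries lipopolysaccharide to CD14, rose from 98.2 ± 14.5 to 861.8 ± 434.7 TPM (2.88 ± 0.41, limma adjusted p = 0.00056). Cd36, a scavenger receptor that works with TLR2, rose by 4.09 ± 0.82, and Nrros, Ly86 and Cd180 rose by 3.12, 2.34 and 2.00. Unc93b1, which carries the endosomal receptors to their compartment, stood at 0.87 ± 0.34 (limma adjusted p = 0.064), and the chaperones Cnpy3 and Hsp90b1 at -0.12 and 0.13.

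Of 19 other adaptors and signalling steps tested, 6 rose, 1 fell and 12 did not pass in injured mutants. Over all genes 30.8% passed, 13.1% higher and 17.7% lower. The median log2 change of the list was 0.17. Tirap, which bridges MyD88 to TLR2 and TLR4, rose by 1.09 ± 0.16 (limma adjusted p = 0.00057), Pik3ap1 by 3.48, Ikbke by 1.28, Irf5 by 1.03, Traf3 by 0.74 and Irak4 by 0.63. Pik3ap1 met the filter of 1 TPM in 3 libraries only with injured libraries counted. Traf6, the ubiquitin ligase below the IRAK kinases, fell by 0.39 ± 0.11 (limma adjusted p = 0.018). Ticam1, which encodes the adaptor TRIF of TLR3 and TLR4, stood at 0.089 ± 0.13 (limma adjusted p = 0.64), and Irak1, Irak2 and Tbk1 did not pass.

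Other negative regulators were 4 higher and 1 lower of 7 tested in mutants, against 13.1% higher and 17.7% lower over all genes. Il1rl1 rose by 2.67, Tank by 1.41, Tnfaip3, which encodes the ubiquitin-editing enzyme A20, by 1.22 and Tollip by 0.40. Il1rl1 met the filter of 1 TPM in 3 libraries only through injured libraries, so its call is not independent of the filter. The deubiquitinase gene Cyld fell by 0.74 ± 0.18 (limma adjusted p = 0.0087).

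Of 11 genes for endogenous ligands named for TLR2 or TLR4, 7 rose and 1 fell in injured mutants. The shares over all genes were 13.1% and 17.7%. Saa3, an acute-phase protein, rose by 5.46 ± 1.20 (limma adjusted p = 0.0046), the matrix protein gene Tnc by 4.61 ± 0.76 (limma adjusted p = 0.0011), and S100a8 and S100a9 by 4.34 and 4.21. S100a8 and S100a9 met the filter of 1 TPM in 3 libraries only with injured libraries counted. Fn1, Dcn and Hspd1 rose by 1.69, 1.52 and 0.70. Vcan, the proteoglycan versican, fell by 1.02 ± 0.31 (limma adjusted p = 0.024), and Bgn, Hmgb1 and Hspa1a did not pass.

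Of the genes listed as known targets of the MyD88 arm, 10 of 10 rose in injured mutants, with a median log2 change of 3.28. Over all genes 13.1% rose and 17.7% fell. The target lists were chosen with earlier results of these data known, and which signal drove these genes was not tested. Nos2, the inducible nitric oxide synthase, rose from 2.85 to 680.9 TPM on average (7.43 ± 0.998, limma adjusted p = 0.00047), and the chemokine genes Cxcl1, Ccl2 and Cxcl2 rose by 6.59, 5.94 and 5.68. Il6, Il1b and Tnf rose by 3.07, 3.30 and 2.84, and the feedback inhibitors Nfkbiz and Nfkbia by 2.13 and 1.39. Of 7 tested targets of the TRIF and interferon arm, 0 rose and 1 fell, Irf1 by 0.64 ± 0.18 (limma adjusted p = 0.014). Cxcl10 stood at 0.93, Rsad2 at 1.64 (limma adjusted p = 0.068) and Ifit3 at -0.81, and Ifnb1 was listed at 0 in every library. Wild-type mice had 0 genes of these 6 lists called by limma, where 0.116% of all genes were. The MyD88 targets all had changes above 0 there, with a median of 2.34 and 7 of 10 at an unadjusted p under 0.05, and the TRIF and interferon targets had a median of -0.90 and 1 of 7, where 4155 of all 24188 genes had such a p. No gene of these lists passed the interaction test, where 0% of all genes did.

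Markers of some white blood cells were higher in injured than in intact mutants. The 10 macrophage and monocyte markers summed to 116.5 to 136.6 TPM in intact wild-type and 117.3 to 171.8 TPM in intact mutant discs. After injury they summed to 163.4, 210.6, 1374 and 733.9 TPM in wild-type mice 1 to 4 and to 652.3, 1986, 452.0, 1072 and 354.7 TPM in mutant mice 1 to 5. The injured wild-type mice with low Tlr7 and Cd14, mice 1 and 2, were also those with low sums. Of the 10 markers, 7 rose in mutants by limma's test, where 13.1% of all genes rose and 17.7% fell. Ly6c2 stayed below 1 TPM in every intact library, so it met the filter only through injured libraries. Adgre1, a defining macrophage marker, stood at 0.678 to 3.64 TPM in intact mutants and at 14.4 to 171.4 TPM in injured mutants. Csf1r (41.3 to 68.7 TPM in intact and 40.1 to 142.3 TPM in injured mutants) and Cd163 (2.72 to 8 TPM and 3.70 to 18.5 TPM) overlapped. The part of these cells in the members' changes was not tested.

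The 9 neutrophil markers, of which S100a8 and S100a9 also stand among the endogenous ligands, summed to 1.99 to 3.66 TPM in intact and 13.6 to 1014 TPM in injured mutants, and to 7.26 to 8.61 and 4.49 to 188.0 TPM in the wild type. Ly6g and Mpo were at 0 in every intact library. Mutant mouse 2, the mouse with 819.2 TPM of Cd14, had the sum of 1014 TPM. Retnlg (0.665 to 2.04 TPM in intact and 0 to 52.7 TPM in injured mutants) and Mmp8 (0.122 to 0.767 TPM and 0.129 to 9.10 TPM) overlapped. Elane was at 0 in every injured mutant and at 0 to 0.684 TPM in intact mutants. Of 7 neutrophil markers tested, 4 rose in mutants, where 13.1% of all genes rose and 17.7% fell. Intact libraries alone did not bring S100a8, S100a9, Csf3r or Cxcr2 past the filter of 1 TPM in 3 libraries. A call of these markers is therefore not independent of the filter. The notochordal markers went the other way, with sums of 3314 to 5464 TPM in intact and 552.5 to 3305 TPM in injured mutants, and 3 of 4 tested fell. The chondrocyte-like and anulus markers summed to 12820 to 15215 TPM in intact and 6164 to 13310 TPM in injured mutants, and 2 of 6 fell. The dendritic cell markers had 2 of 2 tested higher in mutants (at most 0.9265 TPM summed in intact and 3.76 to 14.1 TPM in injured mutants). No dendritic cell marker reached 1 TPM in an intact library, so those tested met the filter only through injured libraries. Their calls are therefore not independent of the filter. None passed among the T cell (1 of 3 tested), B cell (1 of 3) and keratinocyte markers (1 of 3). Nor did any muscle (2 of 3 tested), endothelial (3 of 3), erythroid (3 of 3) or fat cell marker (2 of 2). Endothelial markers summed to 1.59 to 7.11 TPM in intact and 6.77 to 47.7 TPM in injured mutants. The part of these cell types in the members' changes was not tested either. In intact discs Tlr2, Tlr4 and Cd14 stood above 20 TPM in every library, where Adgre1 was below 3.7 TPM, Itgam below 1.4 TPM and Ly6g at 0. Csf1r and Cd68 stood at 41.3 to 70.7 TPM and 36.0 to 61.6 TPM in the same libraries.

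By likeness of pattern, measured as the root mean square difference of centred log2(TPM + 1) over the 16 libraries among genes whose mean TPM reached 5, the gene nearest to Tlr2 was Nfkbia (0.228). The nearest to Cd14 was Hmox1 (0.269), the nearest to Myd88 was Nek6 (0.202) and the nearest to Irak3 was Ifi30 (0.196). Ifitm3 (0.407) and Trem2 (0.416) were nearest to Tlr7. Among the members, Myd88 and Ly96 were closest to each other (0.253). These distances describe the same 16 libraries and carry no test.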

How the data were processed

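RNA was sequenced from the discs of 16 mice. The authors deposited expression as TPM in 1 table for the whole series, in which each mouse is a column and each column sums to about the same total. Genome build GRCm38 and bcl2fastq 2.20 come from the submitters' processing notes. The aligner, counter, annotation and strand use are not given in the sources used here. Per the labels' protocols ribosomal RNA was depleted, whereas the molecule field reads polyA RNA.

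Groups and mouse numbers came from the titles. Tests used limma (version 3.58.1, under R 4.3.3; lmFit, then eBayes with trend) on log2(TPM + 1) and covered the 24188 genes that reached 1 TPM in 3 or more libraries. All 16 libraries entered 1 fit, and 5 contrasts were adjusted by Benjamini-Hochberg over the genes tested. The fit was tested on simulated data with known changes. Errors are limma's moderated standard errors. Named genes are the 10 members, the genes of the pathway and marker lists, the genes nearest to members, and genes that overlap members. Members and lists were chosen with earlier results of these data known.

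Positions and transcripts came from GENCODE release M21. Implied reads were recovered from TPM and exon length, with 94.1% to 95.0% of low values within 0.05 of a whole number. Alternatives were a pseudocount of 0.1, no filter, a mean of 5 TPM, other scalings, no trend, array weights, fits of the compared groups only, a replicate block, name prefixes and leaving out each mouse. Voom on the implied reads was added after seeing the data. Same-numbered mice are different animals, so the main fit had no pairing.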

Additional observations from a re-analysis of the deposited data

Results flagged for a closer look

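The Cd14 level of injured mutant mouse 2, 819.2 TPM, stood far from the other 4 injured mutants (145.8 to 300.1 TPM). Its gap to the nearest mouse was 0.771 of the range of the group, above Dixon's critical value for 5 samples. On the log2 scale the gap was 0.582 of the range, which is below it. Dixon's test was run on 30 groups of values, and chance flags about 1 in 20. Without this mouse Cd14 still passed for injury in mutants.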

How the results depend on the processing

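Of the 10 genes, the number passing for injury in mutants was 2 with only the mutants named M and 7 to 8 without each mouse in turn. Over all genes 3% passed with only those mutants, and 22% to 33% without each mouse. For injury in the wild type the number was 1 with array weights (Tlr7) and 0 to 2 without each mouse. Over all genes 0.318% passed there with array weights, against 0.116% in the main fit. Without injured wild-type mouse 1, which gave the 2, it was 1.87%. For genotype in injured discs the number was 1 with array weights (Myd88, 0.75, limma adjusted p = 0.046) and 0 to 4 without each mouse. Over all genes 4.42% passed there with array weights, against 0.918% in the main fit. Without injured wild-type mouse 3, which gave the 4, it was 9.31%. The number of members stayed 0 for genotype in intact discs and for the interaction. Every other setting gave 7 to 9 for injury in mutants and 0 in the other comparisons. The causes of these differences were not tested.

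Signs turned for small log2 differences. Tlr3 for injury in mutants was 0.0328 when scaled by median of ratios, 0.0527 when quantile normalized, 0.1696 with A8 mutants only and -0.1695 to 0.0487 without each mouse. For genotype in intact discs, Tlr1 was -0.0954 with array weights, -0.0731 with A8 mutants and -0.0719 to 0.2260 without each mouse. Mutants named M gave -0.0286 for Tlr2, -0.2244 for Tlr4, 0.1999 for Tlr6, 0.0698 for Cd14 and 0.1763 for Ly96. Ly96 was also 0.0057 with quantile normalization, 0.0271 with array weights and -0.1942 to 0.0726 without each mouse, where Tlr4 ran from -0.0481 to 0.2677 and Myd88 from -0.2517 to 0.0331. For genotype in injured discs, mutants named M gave -0.1253 for Tlr4 and -0.4412 for Tlr7, voom gave -0.0158 for Tlr7, and Tlr7 ran from -0.5035 to 0.5392 without each mouse. For the interaction, Tlr3 was 0.0267 with A8 mutants. Tlr4 was 0.0924 when scaled by median of ratios, 0.0271 when quantile normalized, 0.0542 with the name prefix as a covariate, 0.0003 with A8 mutants, 0.0990 with M mutants and -0.1722 to 0.1436 without each mouse. Tlr6 was -0.1289 and Tlr7 -0.2401 with M mutants, and Tlr7 ran from -0.2677 to 0.7750 without each mouse.

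The replicate numbers did not pair the mice: correlations of same-numbered mice ran from -0.217 to 0.078. With the replicate number as a block, 8 members passed for injury in mutants and 0 in the other comparisons, and Tlr1 for genotype in intact discs turned to -0.0563. Over all genes the block gave 5 calls for injury in the wild type, 6191 for injury in mutants, 2 and 11 for genotype in intact and injured discs, and 0 for the interaction.

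Depth limits Tlr1 most, with at most 5 implied reads in any intact mutant. The injured wild-type mice fell into mice 1 and 2 with low and mice 3 and 4 with high values for 8 genes. With all wild-type names beginning with D, no comparison of genotypes within a name prefix was possible.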
